A study of Mus musculus with 10 samples.

Results

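Esrrb encodes an orphan nuclear receptor of the oestrogen-related receptor family, and the regions that the authors assigned to it were followed through 6 lists of sites bound by HEB or SMAD2/3. The members are the rows whose listed gene is Esrrb: 51 of the 78263 regions in all lists, which join into 25 separate sites when regions that share at least 1 bp are merged. Esrrb was chosen by its number of regions in these same lists, so its counts and levels are a description and carry no test. The lists came from chromatin immunoprecipitation followed by sequencing (ChIP-seq) of the mouse embryonic stem cell (ESC) line CGR8 and of cells differentiated from it, with 1 ChIP library for each group, 6 in all, and 4 input libraries among the 10 samples.

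The groups were, first, differentiating cells of day 4 that were given the receptor inhibitor SB431542 at 10 µM for 48 hours (Endoderm+SB HEB). The labels can be read as adding it together with Activin A at 100 ng/ml, but their wording on this is unclear. Next were cells differentiated with Activin A at 100 ng/ml without inhibitor, collected at day 4 (Endoderm HEB), and ESCs given 10 µM SB431542 for 24 hours (ESC+SB HEB). Untreated ESCs (ESC HEB) completed the HEB libraries, and SMAD2/3 was profiled in endoderm (Endoderm SMAD2/3) and in ESCs (ESC SMAD2/3), both without inhibitor. ESCs were kept in serum with LIF and no feeder cells, and all groups derive from the 1 line. The labels call the inhibitor-treated differentiating cells endoderm. RNA was not measured in these libraries, so neither that name nor the level of Esrrb was checked against marker genes.

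In mouse ESCs the ESRRB protein sustains self-renewal together with OCT4, SOX2 and NANOG, and its gene is repressed by TCF7L1 and switched off as cells leave the naive state. SMAD2 and SMAD3 are phosphorylated by activated Nodal and activin receptors, then enter the nucleus and bind DNA together with other factors. HEB, the product of Tcf12, belongs to the E proteins, basic helix-loop-helix factors that recognise E-boxes. SB431542 blocks the type I receptors that phosphorylate SMAD2 and SMAD3.

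The distances that the authors list from each region to the gene imply a pair of 5′ ends for Esrrb on chromosome 12 of mouse build mm9, an upstream one at 87702067 and a downstream one at 87762594, 60527 bp apart. RefSeq gives promoters with the same spacing of 60527 bp in build GRCm38.p6, both on the plus strand. Sites are named below by the distance of their highest summit from the downstream 5′ end, in kb, so that negative values lie between the starts. All 51 regions lay inside the gene by the authors' assignment, and exons and introns were not annotated for mm9 here.

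None of the lists held a region at either 5′ end. The nearest HEB region, at -7.6 kb in Endoderm HEB, ended 7478 bp before the downstream 5′ end, and the nearest SMAD2/3 region, at -11.4 kb in Endoderm SMAD2/3, ended 11138 bp before it. In ESCs the nearest was the HEB region at +14.2 kb, 13772 bp past the downstream 5′ end. Across all genes, regions within 1 kb of a 5′ end made up 17.7% of the ESC HEB list and 15.2% of the ESC SMAD2/3 list. The 250 bases before each start, from RefSeq, are shown because they are the windows that stayed without a listed region. Capitals mark matches on either strand to the E-box CANNTG, of which CAGCTG and CAGGTG are special cases, and to the SMAD forms CAGAC and GGCGCC.
Upstream start, 250 bases: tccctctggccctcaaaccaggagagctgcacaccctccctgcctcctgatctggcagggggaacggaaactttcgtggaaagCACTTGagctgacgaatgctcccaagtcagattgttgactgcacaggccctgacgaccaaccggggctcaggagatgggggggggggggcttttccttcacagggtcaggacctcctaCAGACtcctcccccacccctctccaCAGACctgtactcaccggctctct
Downstream start, 250 bases: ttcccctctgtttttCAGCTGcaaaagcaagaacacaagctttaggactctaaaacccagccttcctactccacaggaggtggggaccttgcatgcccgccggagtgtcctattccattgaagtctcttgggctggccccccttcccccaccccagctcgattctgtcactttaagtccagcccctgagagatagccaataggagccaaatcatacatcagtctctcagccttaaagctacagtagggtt
The upstream window holds 1 E-box and 2 copies of CAGAC. The downstream window holds 1 E-box, of the form CAGCTG, and no CAGAC. Among 32851 RefSeq promoter windows of the same length, 66.2% hold CANNTG, 13.0% CAGCTG, 17.2% CAGGTG, 42.2% CAGAC and 9.59% GGCGCC. The sequence under the bound sites themselves was not used here, since no mm9 genome was at hand.

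The number of regions differed widely between lists. Endoderm+SB HEB had 0 regions at Esrrb, Endoderm HEB had 6, ESC+SB HEB had 17 and ESC HEB had 17. Endoderm SMAD2/3 had 4 and ESC SMAD2/3 had 7. The lists themselves held 10147, 18981, 16769, 17222, 11033 and 4111 regions in this same order, so the longest list, that of Endoderm HEB, was not the one with most Esrrb regions. Among the genes with at least 1 region in a list, the median count was 1 in every list. In ESC HEB 2 genes had more regions than Esrrb, Msi2 with 28 and Igsf21 with 26, and in ESC SMAD2/3 also 2 genes did. In Endoderm HEB 184 genes had more and in Endoderm SMAD2/3 125 genes. A long gene can hold more regions than a short one, and these counts are not divided by gene length.

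**Figure D1:**
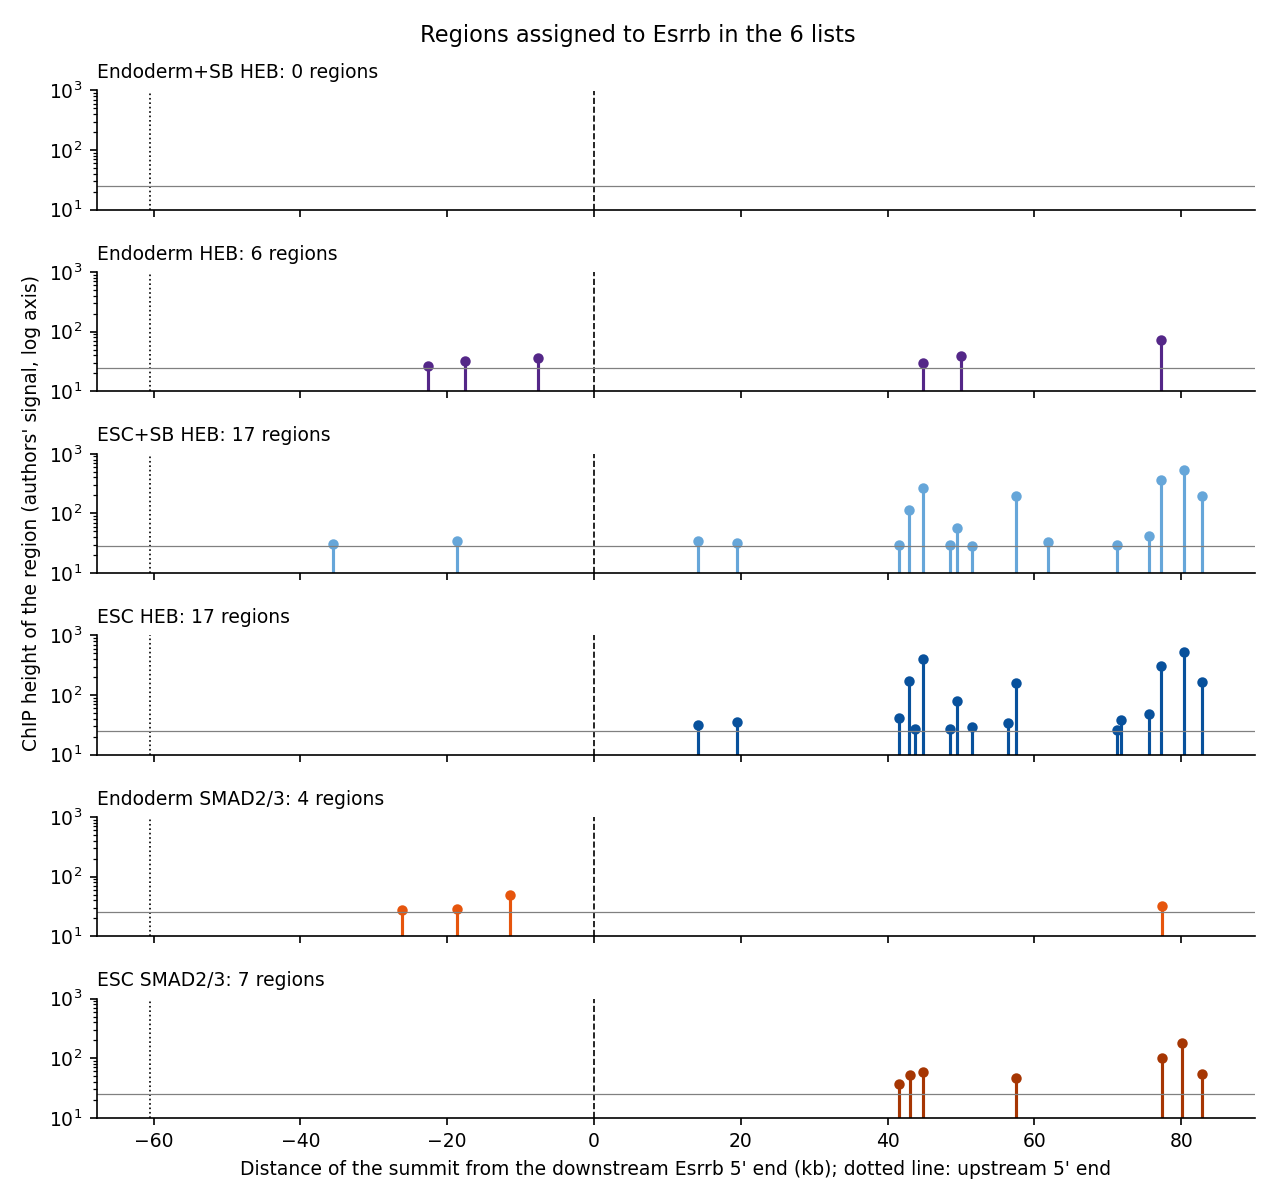
Each point is a region assigned to Esrrb, placed by the distance of its summit from the downstream 5′ end (kb, dashed line) and by its ChIP height (log axis, with stems as a guide to the eye). The grey line is the smallest height in each list, and the 17 ESC HEB and 7 ESC SMAD2/3 regions lie downstream of the dashed line, while 3 of 6 Endoderm HEB and 3 of 4 Endoderm SMAD2/3 regions lie upstream of it.

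The height of a region is the authors' ChIP signal at its summit, with no stated scaling, and lists began at a height of 25.0, or 28.0 for ESC+SB HEB. Heights at Esrrb ranged over 26.4 to 73.3 in Endoderm HEB, 28.0 to 543 in ESC+SB HEB and 25.5 to 533 in ESC HEB. They ranged over 27.6 to 49.5 in Endoderm SMAD2/3 and 37.6 to 183 in ESC SMAD2/3. Of the ESC HEB regions 7 of 17 were in the highest 20% of their list by height and 3 in the lowest 20%. For Endoderm HEB this was 1 of 6 in the highest 20% and 1 in the lowest. The Esrrb regions summed to 950 ChIP tags over 2632 bp in Endoderm HEB, 9302 over 10793 bp in ESC+SB HEB and 10141 over 11336 bp in ESC HEB. Per kb of listed region these sums are 361, 862 and 895 tags. For SMAD2/3 they were 552 tags over 1755 bp in endoderm and 3066 over 5052 bp in ESCs, or 315 and 607 tags per kb.

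The tallest site was at +80.4 kb (chr12:87842439-87843374). HEB there reached a height of 543 in ESC+SB and 533 in ESC, and SMAD2/3 reached 183 in ESC. ChIP tags numbered 3130, 3167 and 1365, with input tags of 60, 68 and 68. In height this region exceeded 99.88% of the ESC+SB HEB list, 99.77% of the ESC HEB list and 98.7% of the ESC SMAD2/3 list. Neither endoderm list nor Endoderm+SB HEB held a region at this site.

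The site at +77.2 kb (chr12:87839110-87840415) was the 1 site of the 25 that was listed for both factors in both cell states. HEB had a height of 73.3 in Endoderm, 362 in ESC+SB and 302 in ESC, from 360, 1734 and 1681 tags. SMAD2/3 had a height of 32.2 in endoderm and 99.8 in ESCs, from 136 and 600 tags. Both factors therefore stood lower in endoderm than in ESCs, and HEB was not listed there in Endoderm+SB.

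The site at +44.8 kb (chr12:87807088-87807722) was the next tallest for ESC HEB after +80.4 kb. Its height was 30.1 in Endoderm HEB, 268 in ESC+SB HEB and 395 in ESC HEB, from 77, 675 and 1053 tags, against 58.8 and 217 tags in ESC SMAD2/3. With 1053 ChIP and 17 input tags, the ESC HEB region had the highest tag enrichment of the gene, 61.9. The authors' tag enrichment is ChIP tags divided by input tags, and it was 12.8 for SMAD2/3 at this site.

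Another 4 sites carried both factors in ESCs. At +42.9 kb (chr12:87805171-87806024) HEB reached 115 in ESC+SB and 174 in ESC, and SMAD2/3 reached 51.4 in ESC. At +57.5 kb (chr12:87819569-87820382) the heights were 196 for ESC+SB HEB, 157 for ESC HEB and 46.1 for ESC SMAD2/3. At +82.8 kb (chr12:87844939-87846034) they were 193, 165 and 53.7 in the same lists. The site at +41.6 kb (chr12:87803918-87804430) was low in all 3, at 29.9, 41.8 and 37.6, and here the SMAD2/3 height was close to that of HEB.

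**Figure D2:**
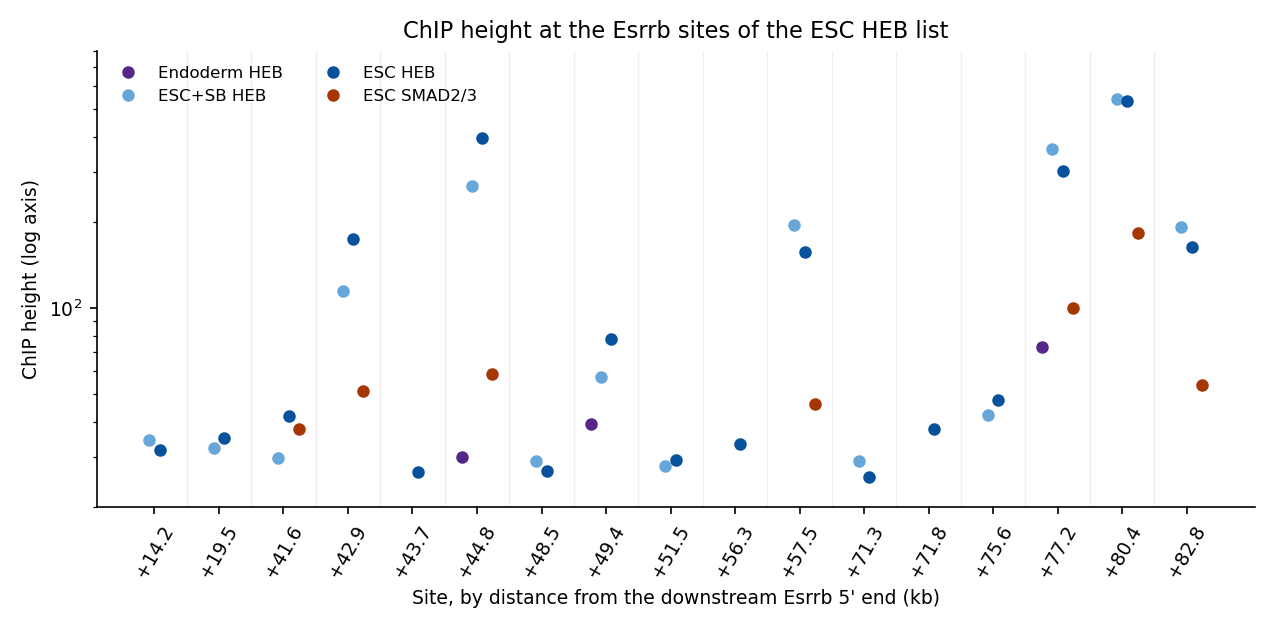
ChIP height (log axis) at the 17 Esrrb sites of the ESC HEB list, by distance from the downstream 5′ end (kb), with the height of Endoderm HEB, ESC+SB HEB and ESC SMAD2/3 where that list holds the site. The 6 tallest ESC HEB sites, from 157 to 533, all carry an ESC SMAD2/3 point, and Endoderm HEB points appear at 3 sites.

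All 7 ESC SMAD2/3 regions of Esrrb overlapped an ESC HEB region (100%, exact 95% interval 59.0 to 100), against 83.9% of all ESC SMAD2/3 regions. Seen from HEB, 7 of 17 ESC regions overlapped SMAD2/3 (41.2%, 18.4 to 67.1), against 19.8% of all ESC HEB regions and 48.9% of the highest 20% by height. Of the 7 Esrrb regions in that class, 6 overlapped SMAD2/3. The exception was +49.4 kb, with a height of 78.0. These intervals, and those below, are Clopper-Pearson intervals that treat regions as independent and cover counting error only.

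HEB regions with SMAD2/3 were the taller ones. Their median height was 174 (41.8 to 533, n = 7 regions), against 32.6 (25.5 to 78.0, n = 10 regions) for the ESC HEB regions of Esrrb without SMAD2/3. The ranges overlapped through the +41.6 kb site. In the whole ESC HEB list the corresponding medians were 63.4 over 3414 regions with SMAD2/3 and 34.7 over 13808 without. The same ordering thus held for the list as a whole, with a smaller gap.

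The ESC HEB regions without SMAD2/3 were spread from +14.2 to +75.6 kb. The highest was +49.4 kb (chr12:87811627-87812863), at 39.1 in Endoderm HEB, 57.3 in ESC+SB HEB and 78.0 in ESC HEB. The site at +75.6 kb had heights of 42.3 in ESC+SB and 47.7 in ESC. Those at +14.2, +19.5, +48.5, +51.5 and +71.3 kb had heights of 28.0 to 34.5 in ESC+SB and 25.5 to 34.9 in ESC. These sit close to the smallest height a list could hold.

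The SMAD2/3 summit was set against the HEB summit at each of the 7 shared ESC sites. At +44.8, +41.6, +82.8 and +57.5 kb the SMAD2/3 summit was 2, 12, 24 and 41 bp from that of HEB. At +77.2, +42.9 and +80.4 kb it was 129, 141 and 319 bp away. The median was 41 bp, against 16 bp over all 3479 overlapping ESC pairs, of which 94.1% lay closer than the pair at +80.4 kb. That site was the tallest of both factors, with 1365 SMAD2/3 and 3167 HEB tags.

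Summit positions at +77.2 kb were nearly the same in endoderm and ESCs. The SMAD2/3 summit lay at 87839972 in endoderm and 87839965 in ESCs, 7 bp apart. The HEB summit lay at 87839834 in endoderm and 87839836 in ESCs, 2 bp apart. The SMAD2/3 summit was thus 138 bp downstream of the HEB summit in endoderm and 129 bp downstream in ESCs. At +80.4 kb the HEB summit was at the same base in ESC+SB and ESC.

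**Figure D3:**
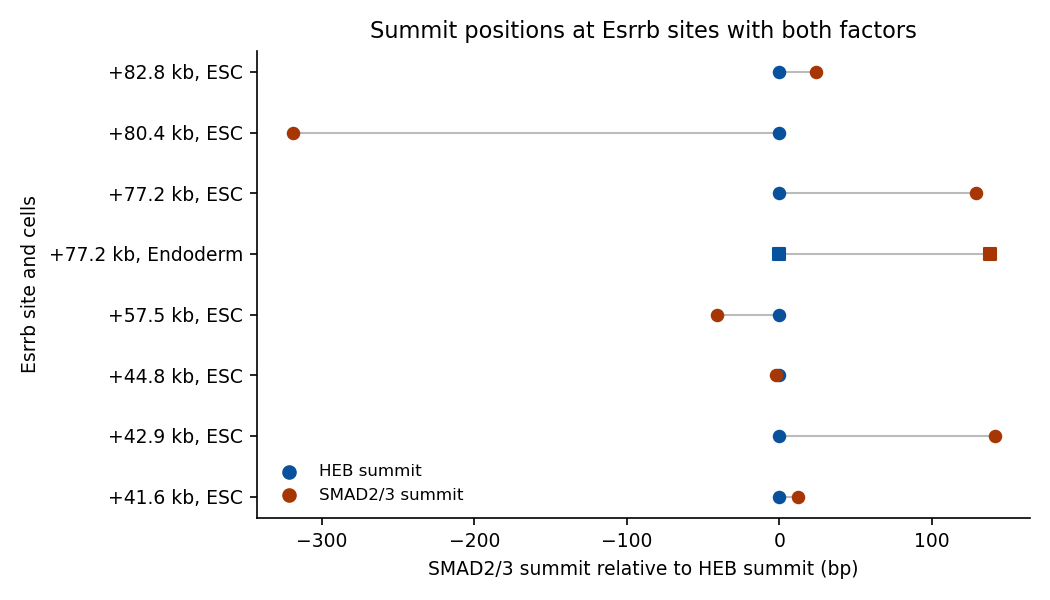
Position of the SMAD2/3 summit relative to the HEB summit (bp, HEB at 0) at the Esrrb sites where both factors overlap, squares for endoderm and circles for ESCs. The offset at +77.2 kb is 138 bp in endoderm and 129 bp in ESCs, and the largest is 319 bp at +80.4 kb.

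HEB was then compared between inhibitor-treated and untreated ESCs. Of the 17 ESC HEB regions 14 were also listed in ESC+SB HEB (82.4%, 56.6 to 96.2), against 74.8% of all ESC HEB regions. All 7 in the highest 20% were listed with SB, as were 98.3% of that class in the whole list. The 3 without a counterpart were +43.7 kb (height 26.5), +56.3 kb (33.4) and +71.8 kb (37.8), and the first of them lay under the 28.0 at which the ESC+SB HEB list began. In turn, 14 of the 17 regions in ESC+SB HEB had an ESC HEB counterpart, against 76.2% of that list, and the other 3 were at -35.5 kb (30.7), -18.7 kb (34.2) and +61.9 kb (33.3). All 7 ESC SMAD2/3 regions overlapped an ESC+SB HEB region, against 77.9% of the whole ESC SMAD2/3 list.

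Heights lay on both sides of the untreated level. The ratio of ESC+SB to ESC HEB height had a median of 0.988 over the 14 shared Esrrb regions (0.658 to 1.25), against 1.07 over all 13112 overlapping pairs. At the 7 sites with SMAD2/3 in ESCs it was 0.715 at +41.6 kb, 0.658 at +42.9 kb, 0.677 at +44.8 kb, 1.25 at +57.5 kb, 1.20 at +77.2 kb, 1.02 at +80.4 kb and 1.17 at +82.8 kb. At the 7 without it was 1.08 at +14.2 kb, 0.928 at +19.5 kb, 1.09 at +48.5 kb, 0.735 at +49.4 kb, 0.958 at +51.5 kb, 1.14 at +71.3 kb and 0.887 at +75.6 kb. By height the lowest 3 were thus neighbouring sites with SMAD2/3. By ChIP tags per kb of region the lowest 3 were +44.8 kb (0.564), +41.6 kb (0.727) and +19.5 kb (0.764), the last without SMAD2/3. The +42.9 kb site was then at 0.790. The median height ratio was 1.02 at the 7 sites with SMAD2/3 and 0.958 at the 7 without. Over all pairs the corresponding medians were 0.986 and 1.10. Each of the 14 height ratios lay within the middle 90% of all pairs, which spanned 0.584 to 1.62.

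Tag counts were lower with SB at the sites of lowest ratio and nearly level at the other tall sites. The +42.9 kb region held 366 ChIP tags in ESC+SB (exact Poisson 95% interval 329 to 405) and 636 in ESC (588 to 687). The +44.8 kb region held 675 (625 to 728) in ESC+SB and 1053 (990 to 1119) in ESC. Region widths differed, and per kb these were 588 tags in ESC+SB and 745 in ESC at +42.9 kb, and 1077 and 1908 at +44.8 kb. At +49.4 kb the ratio of ESC+SB to ESC was 1.08 by tags per kb, on the other side of 1 from that by height. The sites at +14.2, +48.5, +71.3 and +80.4 kb also changed side, to 0.957, 0.853, 0.964 and 0.955 by tags per kb. The median of this ratio over all pairs was 0.948. At +57.5 kb the counts were 830 in ESC+SB and 837 in ESC, at +77.2 kb 1734 and 1681, at +80.4 kb 3130 and 3167, and at +82.8 kb 918 and 923. The intervals cover counting error only, the counts are not scaled for sequencing depth, and 1 library per group gives no spread between cultures. Whether these differences would recur in other cultures was not tested.

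**Figure D4:**
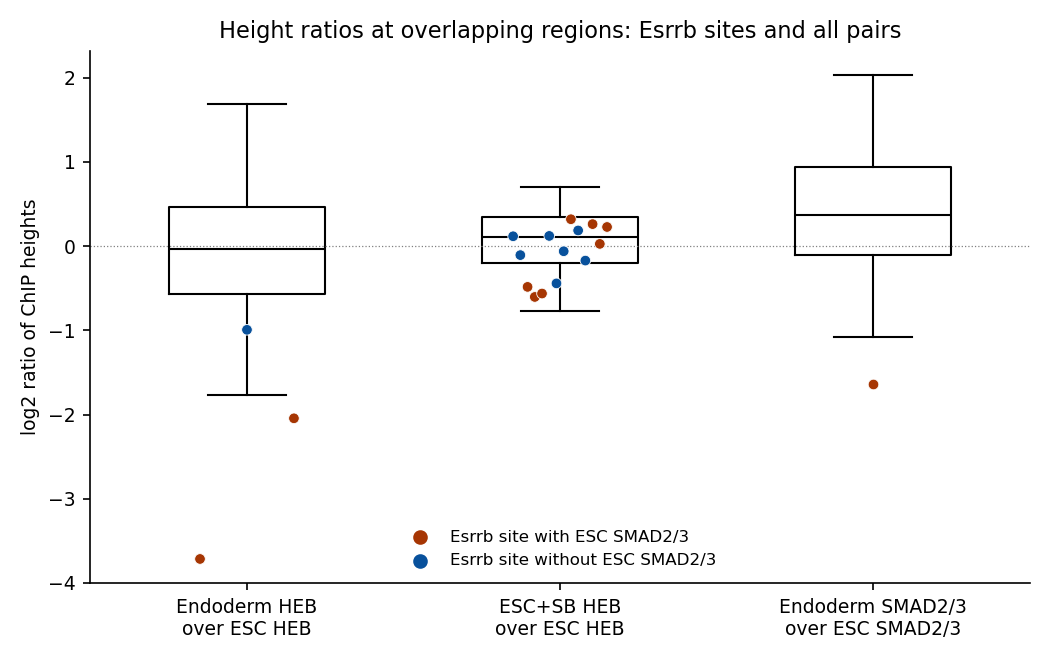
The log2 ratio of ChIP heights at overlapping regions. Boxes show all pairs of the 2 lists (median, quartiles, whiskers at 5% and 95%), and points are Esrrb sites, coloured by the presence of ESC SMAD2/3. The 3 Endoderm HEB over ESC HEB points and the 1 SMAD2/3 point lie below the median of all pairs, and the 14 ESC+SB over ESC points lie on both sides of theirs.

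In endoderm the regions of Esrrb were fewer and lower. Of the 17 ESC HEB regions 3 were also listed in Endoderm HEB (17.6%, 3.80 to 43.4), against 32.1% of all ESC HEB regions. Of the 7 in the highest 20%, 3 were listed in endoderm, against 48.1% of that class in the whole list, so the Esrrb share was near the background there. Seen from endoderm, 3 of 6 Endoderm HEB regions overlapped ESC HEB, against 29.1% of that list. Having fewer regions in Endoderm HEB than in ESC HEB was common among genes with many: it held for 42 of the 47 genes with at least 10 ESC HEB regions (89.4%), Esrrb included. The ratio of Endoderm to ESC HEB height was 0.0761 at +44.8 kb, 0.242 at +77.2 kb and 0.502 at +49.4 kb. By ChIP tags per kb of region the ratios were 0.144, 0.463 and 0.861, less far below 1, with a median of 0.9497 over all pairs. By height, over all 5674 overlapping pairs the median was 0.974, and 0.212% of pairs had a lower ratio than +44.8 kb. At +49.4 kb the summits were 515 bp apart, so the endoderm region there lies on the flank of the ESC region.

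SMAD2/3 showed the same order of levels. Of the 7 ESC SMAD2/3 regions 1 was also listed in Endoderm SMAD2/3, at +77.2 kb (14.3%, 0.361 to 57.9), against 38.7% of all ESC SMAD2/3 regions. Its ratio of Endoderm to ESC height was 0.322 (0.604 by tags per kb, with a median of 1.15 over all pairs), and by height 1.62% of the 1602 overlapping pairs of the lists had a lower one, the median being 1.30. The Endoderm SMAD2/3 list is longer than the ESC one, at 11033 against 4111 regions.

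Of the endoderm regions of Esrrb, 3 of 6 for HEB and 3 of 4 for SMAD2/3 lay between the 5′ ends. Overlap with an ESC region of the same factor was no rarer than in the whole lists. It held for 3 of 6 Endoderm HEB regions, against 29.1% of that list. For Endoderm SMAD2/3 it held for 1 of 4, against 14.2%. Between the 5′ ends, Endoderm HEB had regions at -22.6 kb (height 26.4, 116 tags), -17.6 kb (31.8, 206 tags) and -7.6 kb (36.3, 91 tags). Endoderm SMAD2/3 had them at -26.1 kb (27.6, 198 tags), -18.7 kb (28.5, 71 tags) and -11.4 kb (49.5, 147 tags). The stretch between the starts held 0 ESC HEB and 0 ESC SMAD2/3 regions, and 2 of the 17 ESC+SB HEB regions.

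These upstream regions of the 2 factors did not overlap each other. Of the 4 Endoderm SMAD2/3 regions 1, at +77.2 kb, overlapped Endoderm HEB (25%, 0.631 to 80.6), against 60.5% of all Endoderm SMAD2/3 regions. The -18.7 kb region of Endoderm SMAD2/3 (chr12:87743747-87743981) overlapped the ESC+SB HEB region at the same place (chr12:87743740-87744168), and with +77.2 kb this made 2 of 4, against 34.8% of all Endoderm SMAD2/3 regions. All 3 Endoderm HEB regions between the starts lay below the median height of their list, 39.2.

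With the inhibitor present during differentiation, 0 of the 6 Endoderm HEB regions was listed in Endoderm+SB HEB (0%, 0 to 45.9), against 25.3% of all Endoderm HEB regions. The 1 Esrrb region in the highest 20% of Endoderm HEB, at +77.2 kb, was among those not listed, and 34.7% of that class in the whole list was listed. Of the 47 genes with at least 10 ESC HEB regions 6 (12.8%), Esrrb among them, had no Endoderm+SB HEB region, and the median of the 47 was 3. A region absent from a list may still hold signal under the smallest listed height.

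The sites were also close together. In ESC HEB 15 of the 17 regions began within 50 kb from 87803960, and 10 such stretches without mutual overlap, this one included, were at least as dense in the whole list. The densest held 26 regions. In ESC+SB HEB 13 Esrrb regions began in 50 kb and 14 stretches were at least as dense. All 7 ESC SMAD2/3 regions fell in 42.0 kb (chr12:87803957-87845996), and 17 stretches of 50 kb in that list were at least as dense.

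Other genes of the pluripotency network had fewer HEB regions in ESCs. These counts are again not divided by gene length and leave out regions with no gene listed. Of a list of 20, 6 had a region in Endoderm+SB HEB, 10 in Endoderm HEB, 17 in ESC+SB HEB and 18 in ESC HEB. For SMAD2/3 the counts were 9 in endoderm and 12 in ESCs. In ESC HEB the highest count was 7, for Tcf7l1, whose product represses Esrrb, and the median of the list was 2, against 17 for Esrrb. Tcf7l1 had 6 regions in Endoderm+SB HEB, 13 in Endoderm HEB, 7 in ESC+SB HEB and 7 in ESC HEB. Nr5a2, which encodes an orphan nuclear receptor that can activate Pou5f1, had 0, 1, 7 and 6 in these lists, with 0 Endoderm and 5 ESC SMAD2/3 regions. Tfcp2l1, a transcription factor gene of the naive state listed under an older symbol, had 0, 0, 4 and 5, with 0 Endoderm and 4 ESC SMAD2/3 regions. Other genes of the list, like Tcf7l1, had more regions in Endoderm HEB than in ESC HEB. Among them, Lin28a had 6, 5, 5 and 3 in these HEB lists, Sall4 4, 4, 2 and 3, and Sox2 1, 2, 1 and 1. Klf5 had no region in any of the 6 lists.

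**Figure D5:**
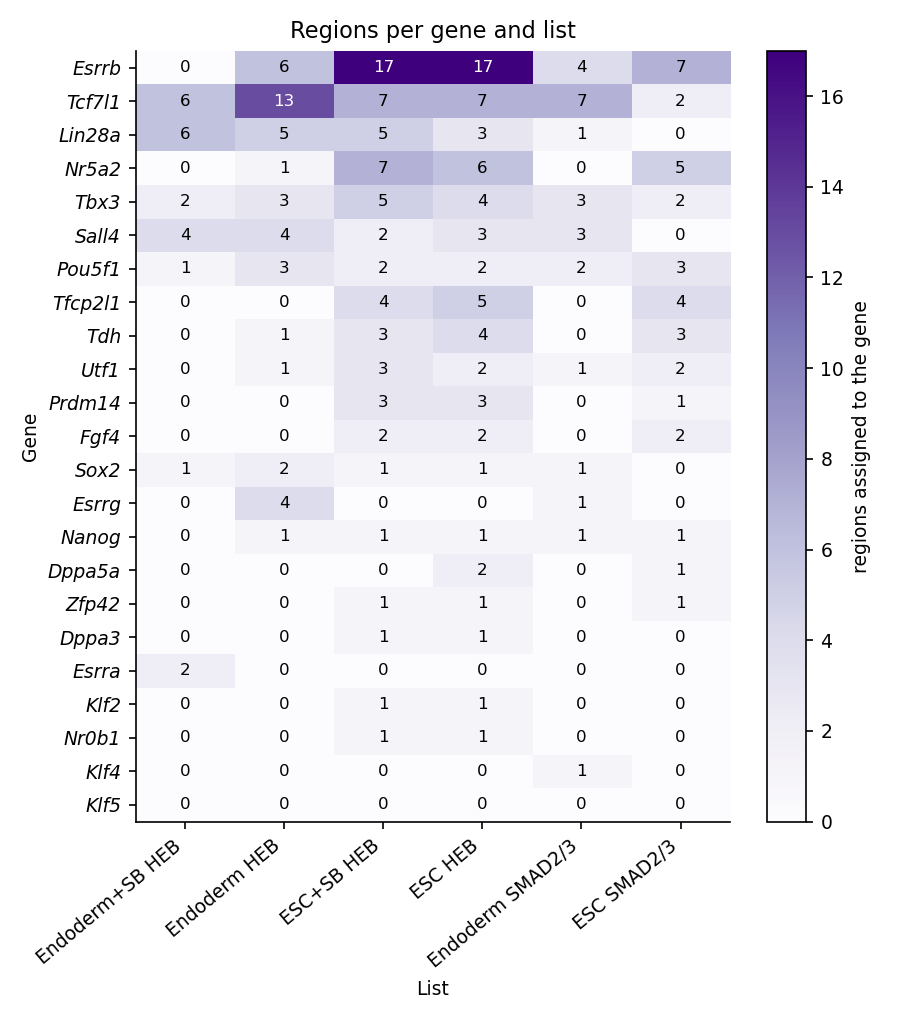
Number of regions assigned to Esrrb, to 20 genes of the pluripotency network and to Esrra and Esrrg in each of the 6 lists, darker for more. Esrrb holds 17 ESC HEB regions, and the next highest of these genes, Tcf7l1, holds 7.

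The other oestrogen-related receptor genes had no region in ESCs. Esrra had 2 regions in Endoderm+SB HEB and 0 in the other 5 lists. Esrrg had 4 in Endoderm HEB, 1 in Endoderm SMAD2/3 and 0 in the rest.

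The genes nearest to Esrrb in their counts over the 6 lists were Gm672, Sept9, Sh3pxd2a, 9030409G11Rik and Myo10. Likeness was the sum of the absolute differences of the 6 counts, at 12, 13, 13, 16 and 16 regions. Gm672 had 2 regions in Endoderm+SB HEB, 3 in Endoderm HEB, 13 in ESC+SB HEB and 17 in ESC HEB, with 1 Endoderm and 7 ESC SMAD2/3 regions.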

How the data were processed

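The authors deposited 1 list of enriched regions for each ChIP library. Per the file headers, each region carries counts of ChIP and background tags, the ChIP and background signal height at its summit, and the ratio of tags called tag enrichment. Per the submitters' processing notes, CASAVA 1.8.2 and build mm9 were used. For the peak caller and the scaling of heights, the sources used here give nothing. The deposited tag ratio equalled the quotient of the counts within 0.1% in 47 of the 51 Esrrb regions, and had a raised divisor in the other 4. The labels give 1 input library for each cell state, so the background counts of SMAD2/3 and HEB in the same cells are not treated as separate measurements.

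Coordinates are printed as deposited. Regions with several gene rows entered once. Overlap meant at least 1 shared bp (Python 3.11.15, pandas 2.3.3, SciPy 1.17.1), and height ratios are given beside the median of all overlapping pairs. Overlaps were tested on simulated data: in each of 3 comparisons 200 of 200 planted overlaps were found, and bedtools 2.31.1 gave the same counts on the deposited lists. Each group has 1 library, so no test across samples was made. Depth outside the listed regions is unknown. Alternatives were stricter lists, lists of equal length, a common smallest height, a larger overlap and other measures. Genes beside Esrrb were named from the network list, as the 5 nearest in region counts and as those with more ESC HEB regions. Esrrb, the lists and these rules were chosen with earlier results of these data known.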

Additional observations from a re-analysis of the deposited data

Results flagged for a closer look

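At +77.2 kb of Esrrb, HEB height with SB431542 over height without was 1.20 in ESCs (362 in ESC+SB HEB, 302 in ESC HEB), or 1.12 after division by the median ratio of all pairs. In the differentiating cells the site was not listed in Endoderm+SB HEB and had a height of 73.3 in Endoderm HEB. If the height there lay under the smallest listed height of 25.0, the ratio would be at most 0.341, not divided by any median. The peak caller is not known, so a region may also be absent from a list for reasons other than height. The site was flagged by a rule asking for opposite sides of 1 in the 2 cell states, so that contrast is no separate finding. Its ESC ratio was not unusual: 66.9% of all pairs had a lower one, and the ratio at +57.5 kb was higher, at 1.25. Absence from Endoderm+SB HEB was common too, since 25.3% of all Endoderm HEB regions were listed there. The ESC ratio and the endoderm limit each rest on 1 library per group, and the difference between them was not tested.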

How the results depend on the processing

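No paired analysis was possible because each group had 1 ChIP library. Of 87 values recomputed under alternative settings, 63 stayed within 1.5 times (counts) or within the counting interval (shares, ratios) and 24 moved. Some of the 63 could not move: the count of 0 in Endoderm+SB HEB stays 0 when lists are only cut. The same goes for the 0% of Endoderm HEB regions listed there. With the upper 50% of each list by height, Esrrb regions numbered 1 in Endoderm HEB, 8 in ESC+SB HEB, 10 in ESC HEB and 1 in Endoderm SMAD2/3, at 11 sites. By tag enrichment they numbered 2, 7, 8 and 2, at 10 sites. With lists of equal length (4111) they numbered 1, 6, 7 and 1, at 9 sites. Endoderm counts stayed below ESC counts in each, and the 7 ESC SMAD2/3 regions stayed within 1.5 times. The share of ESC HEB regions overlapping SMAD2/3 became 70.0% with the upper 50% by height (18.3% of all ESC HEB regions) and 85.7% at equal length (45.9% of all). In both settings the share of Endoderm SMAD2/3 regions overlapping HEB, which rests on 1 region, was 0% (52.7% and 37.95% of all regions), and so was the share of ESC SMAD2/3 regions listed in endoderm (34.05% and 25.0% of all). The median ratio of ESC+SB to ESC HEB was 0.916 by tags per kb and 0.899 by height minus background, and that of Endoderm to ESC HEB was 0.463 by tags per kb. Regions near the smallest listed height, and list membership in general, are limited by depth.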

Other observations

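Beyond the regions that the authors assign to Esrrb, endoderm held further regions with no gene listed on both sides of it. The tallest lay 39.4 kb before the upstream 5′ end, at chr12:87662001-87662694 in Endoderm HEB, with a height of 179, 558 ChIP and 18 input tags. Endoderm SMAD2/3 had a region at the same place (chr12:87662019-87662811), with a height of 78.4 and 340 ChIP tags, and the summits lay at 87662472 for SMAD2/3 and 87662491 for HEB. These heights exceeded those of every Endoderm HEB and Endoderm SMAD2/3 region inside the gene, whose highest were 73.3 and 49.5. The site was not listed in Endoderm+SB HEB or in any ESC list.

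Past the last Esrrb region, Endoderm HEB had a region 51.4 kb on (height 42.6) and Endoderm SMAD2/3 one 95 kb on (37.0). Within 200 kb before and after the Esrrb regions, ESC HEB held 1 further region, in Vash1. Endoderm+SB HEB held 1, 139.8 kb before the upstream 5′ end (height 66.4), where Endoderm HEB also had a region (height 29.7). ESC+SB HEB and ESC SMAD2/3 each had a region in Vash1, with heights of 56.5 and 27.6. Each also had one before the upstream 5′ end, 143.7 kb away for ESC+SB HEB (32.9) and 147.7 kb away for ESC SMAD2/3 (28.15). Endoderm SMAD2/3 had a region overlapping that of ESC SMAD2/3 there, with a height of 35.3.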
